A study of Parhyale hawaiensis with 10 samples.

Results

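Peaks of accessible chromatin in embryonic legs of the amphipod crustacean Parhyale hawaiensis were compared with peaks obtained when ATAC-seq was run on naked DNA in place of nuclei. The members were all peaks of the 3 embryonic leg libraries, 284152 of the 856814 peaks in the 10 libraries of the study. Embryonic leg library 1 held 87308 of them, library 2 held 77357 and library 3 held 119487. The naked DNA library held 161533 peaks. An embryonic leg peak that overlapped a naked DNA peak by at least 1 bp is called DNA-shared here, and any other is called nuclei-only.

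All samples came from the Chicago-F inbred line kept in artificial sea water. Each embryonic leg library was made from T4 to T8 legs of pooled embryos at stages 25 to 26, with 30 to 40 legs collected, and nuclei were released by needle passage in a buffer with Igepal, Tween-20 and digitonin and passed through a strainer. The naked DNA library was made from a whole adult, so its DNA source differed from the embryonic legs in age and tissue, and it had no replicate. The sources used here do not give how that DNA was prepared. For comparison there were 3 libraries of uninjured adult T4 and T5 legs, and 1 whole embryo each at stages 20, 23 and 24, lysed with Igepal as the only detergent. The labels do not say that the replicate libraries came from separate pools, so the spread between them may be technical. The lists hold no gene names, and the labelled tissues were not checked against marker genes.

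In ATAC-seq the transposase Tn5 cuts DNA and inserts sequencing adapters, and it does so mainly where no nucleosome covers the DNA. Stretches with many insertions are called as peaks and are read as open chromatin, which includes promoters and enhancers. Tn5 also prefers some DNA sequences, and sequence present in more copies in an animal than in its genome assembly gathers more reads. Naked DNA carries both of these effects and no nucleosomes, and is used in this assay as a control for them.

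Each peak came with a deposited fold enrichment, which is the authors' ratio of the read pileup at the summit to the pileup expected around it, each plus 1. The expected pileup was recovered from the fold and p-value of every peak. Its most frequent value, taken as the level of background, was 0.457, 0.394 and 0.526 reads in embryonic legs 1 to 3 and 5.11 reads in naked DNA. The naked DNA library was thus called at far higher coverage, and its folds and those of the leg libraries are not on a common scale. Embryonic leg 3 had the deepest background and the longest list of the 3. The naked DNA peaks were wider, with a median of 453 bp against 247, 237 and 237 bp, and covered 89.75 Mb against 25.7, 22.1 and 33.8 Mb. The narrowest naked DNA peak was 278 bp, against 133, 122 and 125 bp in embryonic legs 1 to 3. Whether calling settings contributed to the wider peaks was not tested, and the overlap shares below depend on their width.

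The first question was how many embryonic leg peaks lay where naked DNA also gave a peak. In embryonic leg 1, 17034 peaks were DNA-shared (19.5%, 95% Wilson interval 19.25% to 19.77%). In embryonic leg 2 the number was 14502 (18.7%, 18.47% to 19.02%), and in embryonic leg 3 it was 20407 (17.1%, 16.87% to 17.29%). The mean was 18.45% ± 1.24 (SD, n = 3), so that 70274, 62855 and 99080 peaks were nuclei-only. The library with the longest list had the lowest share and its interval did not meet those of the other two. These intervals cover counting error only, and neighbouring peaks are not independent.

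A summit is a single base and cannot gain overlap from the width of its peak. The main summit lay inside a naked DNA peak in 16.5%, 15.8% and 14.1% of the peaks (mean 15.5% ± 1.26, SD, n = 3). On the 158 scaffolds that reached at least 1 Mb, the share was 12.8%, 12.1% and 11.2%, whereas naked DNA peaks covered 3.17% of the span of those scaffolds. In sequence, 19.9%, 18.7% and 16.9% of the base pairs under embryonic leg peaks lay in naked DNA peaks, which was 5.70%, 4.61% and 6.37% of the base pairs under naked DNA peaks. At a stricter naked DNA threshold, with its peaks kept only at a q-value of at most 1e-05, the share of DNA-shared peaks was 10.1% and that of summits 9.77%.

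Each property of the peaks was then compared between DNA-shared and nuclei-only peaks within each library. The 24 differences were tested with an exact two-sided sign-flip permutation test over the 3 libraries, in which no p can be below 0.25. No difference could therefore pass a threshold of 0.05, and 21 of them reached p = 0.25 (Benjamini-Hochberg adjusted p = 0.286, exact test, n = 3). Differences are read below against their SD between libraries and by how many of the 3 libraries showed the direction, and each has this exact p of 0.25 unless another is given.

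DNA-shared peaks were wider. Their median width was 307, 293 and 295 bp in embryonic legs 1 to 3, and that of nuclei-only peaks was 237, 228 and 228 bp. The groups did not overlap, and the difference of 67.3 bp ± 2.52 (SD, n = 3), or 1.29 times, was far above the spread between libraries. The middle 50% of DNA-shared peaks in embryonic leg 1 ran from 209 to 449 bp, against 177 to 335 bp for nuclei-only peaks. The widest peaks were 3009, 2998 and 3014 bp for DNA-shared and 2103, 1870 and 2094 bp for nuclei-only peaks. Among leg peaks with a q-value of at most 1e-05 the difference was 102 bp.

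Width also enters the rule, because a wider peak has more bases with which to overlap another. The share of DNA-shared peaks was 11.4% ± 0.739 in the 10% of narrowest peaks, which had a median of 135 bp. It was 15.5% ± 1.07 in the fifth of 10 groups ranked by width and 35.4% ± 2.24 in the 10% of widest peaks, with a median of 594 bp (SD, n = 3 each). With the class set by the summit alone, a rule to which width adds nothing, the difference in median width was 59.3 bp, with 293 bp for peaks whose summit lay in naked DNA and 234 bp for the rest. 

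DNA-shared peaks more often had several summits, the separate maxima that the caller placed within a peak. Peaks with 2 or more summits made up 10.04%, 10.7% and 10.1% of DNA-shared peaks and 4.26%, 5.39% and 4.72% of nuclei-only peaks. The mean difference was 5.47 percentage points ± 0.267 (SD, n = 3), a ratio of 2.14, and every library showed it. The mean number of summits was 1.14 ± 0.00376 against 1.05 ± 0.00661. The most divided peaks held 9, 11 and 14 summits among DNA-shared and 7, 6 and 7 among nuclei-only peaks.

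The difference in summits was small among peaks of like width. Averaged over 10 groups of peaks ranked by width, 6.06% of DNA-shared and 5.58% of nuclei-only peaks had several summits, a difference of 0.474 percentage points. In the fifth group, with a median width of 225 bp, DNA-shared peaks had several summits in 0.533% ± 0.26 and nuclei-only peaks in 0.806% ± 0.145 of cases. Of the 10 groups, only the widest had the higher mean in DNA-shared peaks, at 40.5% ± 1.10 against 32.6% ± 1.99 (SD, n = 3 each). There DNA-shared peaks were still wider, with a median of 627 against 580 bp.

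In peak strength the classes differed by less than the libraries did. The median fold was 5.89, 6.26 and 5.90 for DNA-shared peaks and 5.82, 6.34 and 5.75 for nuclei-only peaks in embryonic legs 1 to 3. DNA-shared peaks were stronger in embryonic legs 1 and 3 and weaker in embryonic leg 2, and the mean difference of 0.0451 ± 0.114 lay within the spread between libraries (exact sign-flip permutation p = 0.75, two-sided, n = 3). It was below 0 under 6 of the other settings tried, and reached −0.828 among peaks of like width. A q-value of at most 1e-05 was reached by 58.7% ± 3.07 of DNA-shared and 59.8% ± 3.51 of nuclei-only peaks (exact sign-flip permutation p = 0.5, two-sided, n = 3).

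The quantities behind the fold were further apart. The median expected pileup was 0.541, 0.515 and 0.572 reads at DNA-shared summits and 0.801, 0.791 and 0.811 reads at nuclei-only summits. The difference of −0.258 reads ± 0.0186 (SD, n = 3) was the same in direction in all 3 libraries. The expected pileup lay above the level of background at 59.2%, 63.0% and 53.5% of DNA-shared summits and at 78.9%, 83.5% and 72.5% of nuclei-only summits. The difference in the median was −0.431 reads among leg peaks of q at most 1e-05, and that in the share above background went from −19.7 to −30.3 percentage points at the stricter naked DNA threshold. The median pileup was 9 reads in each library for DNA-shared peaks and 10, 11 and 10 reads for nuclei-only peaks. Among peaks ranked by pileup, the lowest 10% had a median of 4 reads and the highest 10% one of 68.7 ± 3.51 reads (SD, n = 3).

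The share of DNA-shared peaks was highest where the surroundings were at background. It was 31.9%, 34.1% and 25.8% among peaks whose expected pileup equalled the background. It was 17.2% ± 1.83 among those raised up to 2 times, 13.6% ± 0.913 at 2 to 5 times, 9.39% ± 0.306 at 5 to 10 times and 10.7% ± 0.643 above 10 times (SD, n = 3 each). The share fell over the first 4 levels in each library and was slightly higher at the last.

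By rank of the fold, the share of DNA-shared peaks varied little up to the very top. It ran between 14.8% and 20.4% over the 10 groups, with 16.9% ± 1.48 in the lowest and 20.4% ± 1.07 in the highest (SD, n = 3 each). Among the 1000 peaks of highest fold it was 32.9%, 29.7% and 30.0%. Among the 100 highest it was 59.0%, 50.0% and 53.0% (Wilson 95% intervals from 40.4% to 68.1% over the 3 libraries). Of these 100 peaks, 66%, 63% and 65% lay on scaffolds under 10 kb. Ranked by the pileup at the summit instead, the 100 highest peaks were DNA-shared in 49, 50 and 48 cases, and 14%, 16% and 15% of them lay on such short scaffolds. Among the 1000 highest by pileup, 19.8%, 20.0% and 18.3% were DNA-shared, close to the share of all peaks and below that of the 1000 highest by fold. Over 10 groups ranked by pileup the share was 19.5% ± 2.06 in the lowest, 22.1% in the fourth and 14.3% ± 0.586 in the highest (SD, n = 3). The high share was thus limited to the very top of the pileup ranking, and in the top 10% as a whole it was the lowest of the 10 groups.

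**Figure D1:**
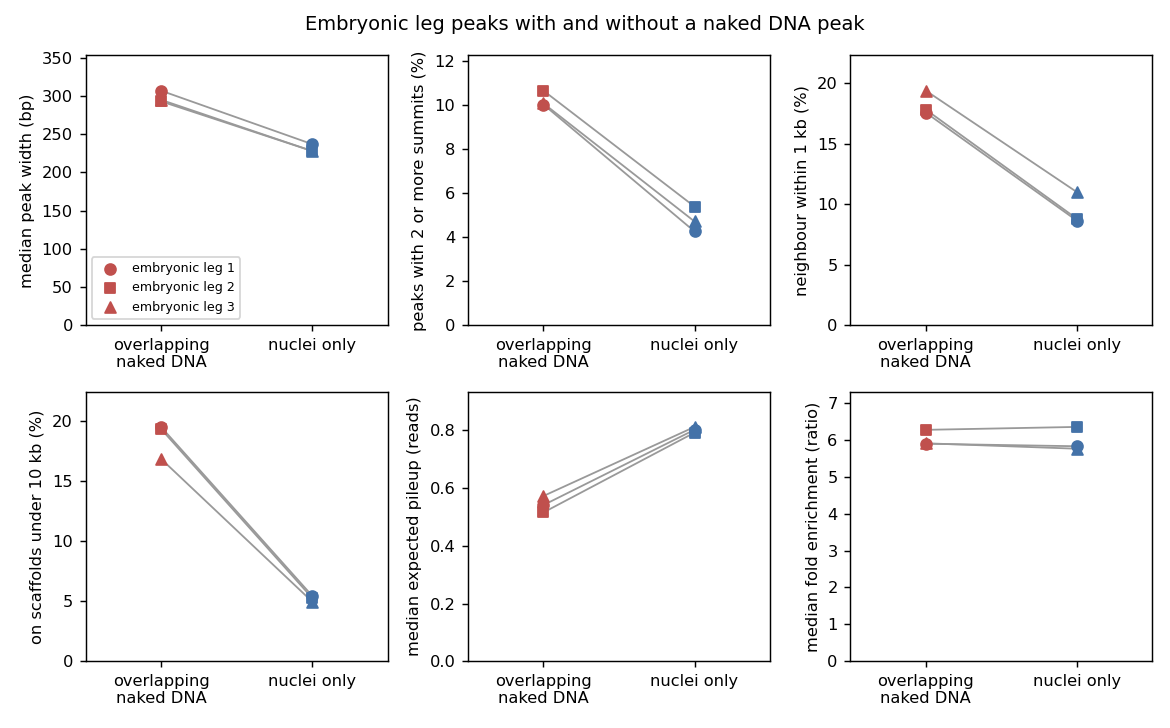
Properties of DNA-shared (red) and nuclei-only (blue) peaks of the 3 embryonic leg libraries, joined by library, with median width in bp, percent of peaks with 2 or more summits, percent of peaks with a neighbour within 1 kb, percent on scaffolds under 10 kb, median expected pileup in reads and median fold. The lines of all 3 libraries slope the same way in the first 5 panels, and the fold lines are nearly level, with embryonic leg 2 (5.89, 6.26 and 5.90 against 5.82, 6.34 and 5.75 in libraries 1 to 3) sloping the other way.

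Scaffold length gave a larger separation. Scaffold lengths were not given in the sources used here, so the farthest peak end in any of the 10 lists was taken, which is a lower bound. On scaffolds that reached less than 10 kb lay 19.5%, 19.4% and 16.9% of DNA-shared peaks and 5.47%, 5.29% and 4.99% of nuclei-only peaks. The difference was 13.3 percentage points ± 1.26 (SD, n = 3), a ratio of 3.54. With naked DNA peaks kept only at a q-value of at most 1e-05 it was 26.2 percentage points.

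Seen from the scaffolds, the share of DNA-shared peaks was 44.4% ± 2.91 on those under 10 kb and 58.7% ± 3.62 on those of 10 to 100 kb. It was 39.0% ± 2.42 at 100 kb to 1 Mb, 17.9% ± 1.13 at 1 to 10 Mb and 14.7% ± 0.781 at 10 Mb or more (SD, n = 3 each). The order was the same in all 3 libraries, with the highest value at 10 to 100 kb. The short scaffolds held few of the peaks: 5416 of the 284152 lay on scaffolds of 10 to 100 kb and 221734 on scaffolds of at least 10 Mb. Among DNA-shared peaks, 32272 lay on the longest scaffolds and 9577 on those under 10 kb.

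DNA-shared peaks were unevenly spaced. The median distance to the nearest other peak of the same library was 7308, 7489 and 6030 bp for DNA-shared and 6580, 6390 and 5466 bp for nuclei-only peaks, a difference of 797 bp ± 274 (SD, n = 3). At the same time 17.6%, 17.8% and 19.4% of DNA-shared peaks had a neighbour within 1 kb, against 8.64%, 8.79% and 11% of nuclei-only peaks. DNA-shared peaks were also more often the only peak on their scaffold, in 18.5% ± 1.63 against 5.46% ± 0.31 of cases (SD, n = 3). That difference of 13.0 points was 25.3 points at the stricter naked DNA threshold. Relative to nuclei-only peaks they were thus more often very close to another peak, and more often far from one or alone. The closeness is partly set by the class rule, because 2 leg peaks on 1 naked DNA peak are both DNA-shared. That was so for 61.8% ± 4.16 of the DNA-shared peaks with a neighbour within 1 kb (SD, n = 3).

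The wider range of distances was also seen with short scaffolds left out, on those of at least 1 Mb. In embryonic leg 1, the nearest 10% of DNA-shared peaks lay within 537 bp of a neighbour and the farthest 10% beyond 43545 bp. For nuclei-only peaks of that library the values were 1152 and 32823 bp. In embryonic leg 3 they were 500 and 31283 bp against 933 and 23694 bp. The median spacing was the least stable of these values: it was 3616 bp longer for DNA-shared peaks among leg peaks with a q-value of at most 1e-05, and 173 bp shorter with naked DNA peaks at that q-value (exact sign-flip permutation p = 0.5, two-sided, n = 3). The excess of neighbours within 1 kb was 8.78 percentage points in the deposited lists, and 3.96 and 17.6 points under these settings.

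Close neighbours of a DNA-shared peak were mostly DNA-shared as well. Where the nearest peak lay within 1 kb, it was DNA-shared in 74.1% ± 3.98 of cases for DNA-shared peaks and in 9.81% ± 0.407 for nuclei-only peaks (SD, n = 3). In 61.8% ± 4.16 of the cases of DNA-shared peaks both overlapped the same naked DNA peak, so the rule placed both in 1 class. At 1 to 10 kb, where only 1.14% of pairs lay on the same naked DNA peak, the neighbour was DNA-shared in 33.99% ± 3.19 against 9.22% ± 0.409 of cases. At 10 kb or more it was so in 28.4% ± 2.28 against 15.9% ± 0.52.

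Agreement among the 3 embryonic leg libraries was next compared. A peak was found in both other embryonic leg libraries in 56.5%, 66.8% and 48.0% of cases for DNA-shared peaks and in 56.1%, 62.7% and 39.8% for nuclei-only peaks. The difference was 0.400, 4.08 and 8.25 percentage points, and its mean of 4.24 was hardly larger than its SD of 3.93 (n = 3). It lay in the opposite direction among peaks of like width, where 49.1% of DNA-shared and 54.5% of nuclei-only peaks were found in both others (−5.40 percentage points, exact sign-flip permutation p = 0.25, two-sided, n = 3). Among peaks of like fold, like pileup or like expected pileup it kept its direction in the means of all 10 groups. In the fifth group it was 59.5% ± 16.1 against 45.02% ± 19.7 by pileup and 60.0% ± 12.7 against 43.5% ± 17.5 by expected pileup (SD, n = 3). Among peaks of q at most 1e-05 the difference was 1.56 points (exact p = 0.75, n = 3). Found in neither other library were 22.5% ± 7.33 of DNA-shared and 27.4% ± 11.3 of nuclei-only peaks.

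Merging the peaks of the 3 libraries gave 156764 regions, of which 27407 (17.5%) overlapped a naked DNA peak and 49046 (31.3%) were called in all 3 libraries. Of the regions called in a single library, 15.1% overlapped naked DNA (95% Wilson interval 14.9% to 15.4%). Of those called in 2 libraries it was 19.1% (18.6% to 19.5%), and of those in all 3 it was 20.4% (20.1% to 20.8%). Regions found only in embryonic leg 3, the library with the longest list, had the lowest share at 13.4%, against 17.9% for those only in embryonic leg 1 and 16.7% for those only in embryonic leg 2. A merged region is at least as wide as each of its peaks, so regions of several libraries had more sequence with which to overlap.

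In the 49046 regions called in all 3 libraries the folds of the 3 libraries lay similarly close with naked DNA and without. The highest of the 3 folds was 1.42 times the lowest in the median of the 10014 regions overlapping naked DNA and 1.41 times in the 39032 others. Spearman's rho between pairs of libraries was 0.793 to 0.814 in the former and 0.802 to 0.825 in the latter, across regions that share library and depth. Among regions called in all 3 libraries and overlapping naked DNA, folds in embryonic legs had almost no rank correlation with naked DNA folds. Across the 10014 regions rho with the naked DNA fold was 0.0878, −0.00109 and −0.0345 for embryonic legs 1 to 3.

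The next question was whether the classes differed in how often they recurred in whole embryos, whose peaks come from all tissues. In bulk libraries, a site open in few cells and a site weakly open in many cannot be told apart. Of DNA-shared peaks 77.1%, 80.7% and 74.0% were called in at least 1 embryo, and of nuclei-only peaks 63.0%, 66.1% and 57.2%. The difference of 15.2 percentage points ± 1.41 (SD, n = 3) was the same in direction in the 3 libraries, and was 9.44 points among peaks of like width. Called in all 3 embryos were 28.6% ± 3.47 of DNA-shared and 12.0% ± 2.17 of nuclei-only peaks.

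The stages differed in this. In the stage 20 embryo 56.5%, 58.8% and 51.1% of DNA-shared peaks were called, against 24.1%, 25.0% and 20.0% of nuclei-only peaks, a ratio of 2.41. This difference of 32.5 percentage points was 50.3 points at the stricter naked DNA threshold. In the stage 23 embryo the values were 48.4%, 53.4% and 44.4% against 26.0%, 28.1% and 21.3%, a ratio of 1.94, and the difference of 23.6 points was 15.5 points among peaks of like width. In the stage 24 embryo they were 53.8%, 58.6% and 52.8% against 56.5%, 59.8% and 50.8%, with a difference of −0.628 percentage points ± 2.37 (exact sign-flip permutation p = 0.75, two-sided, n = 3). That last difference was −6.75 points among peaks of like width (50.1% against 56.8%, exact sign-flip permutation p = 0.25, two-sided, n = 3) and −4.52 points at the stricter naked DNA threshold. It was 1.31 points on scaffolds of at least 1 Mb and 0.378 points without embryonic leg 1. Among peaks of like pileup or like expected pileup, stage 24 presence was higher in DNA-shared peaks in the means of all 10 groups. In the fifth group it was 55.1% ± 5.40 against 51.7% ± 4.625 by pileup. By expected pileup it was 59.1% ± 5.52 against 50.95% ± 8.10 (SD, n = 3 each). With only stages 20 and 23 looked up, which was decided on after the data were seen, presence in at least 1 embryo was 65.6% against 35.2%, a difference of 30.4 points ± 0.625.

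The stage 24 embryo also differed from the others as a library. It held 119994 peaks against 60435 at stage 20 and 56606 at stage 23, and 15.6% of its own peaks overlapped naked DNA against 30.1% and 26.2%. Its narrowest peak was exactly 200 bp, against 137 and 149 bp. A q-value of 1e-05 or lower was reached by 62.7% of them, against 27.0% and 27.4%. With 1 embryo per stage, stage and library cannot be told apart.

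The same contrast appeared in the regions called in all 3 embryonic leg libraries. Of the 12999 that were called in the stage 24 embryo and no other, 1142 (8.79%, 95% Wilson interval 8.31% to 9.28%) overlapped naked DNA. Of the 1213 called at stage 20 and no other stage, 556 did (45.8%, 43.1% to 48.6%). Of the 1592 called at stages 20 and 23 but not at stage 24, 1139 did (71.5%, 69.3% to 73.7%), the highest share of any pattern of embryos. At the stricter naked DNA threshold the first and the last of these shares were 1.18% and 69.2%. Regions called in none of the embryos stood at 10.6% and those called in all 3 at 34.8%.

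Presence in adult legs differed as well. Called in all 3 adult leg libraries were 35.5%, 40.9% and 30.7% of DNA-shared peaks and 17.96%, 20.3% and 13.5% of nuclei-only peaks. The difference was 18.4 percentage points ± 1.89 (SD, n = 3), a ratio of 2.07, and was 9.69 points among peaks of like width. In at least 1 adult leg library the values were 70.7% ± 5.96 and 49.5% ± 7.04. By library, the difference was 12.9 points ± 1.37 for adult leg 1, 29.1 points ± 1.56 for adult leg 2 and 21.0 points ± 1.195 for adult leg 3. Among peaks of like width these were 4.46, 20.8 and 12.7 points. Of these adult libraries' own peaks 20.8%, 31.4% and 26.9% overlapped naked DNA, so adult leg 2 had both the largest difference and the largest overlap of its own. The peak names in the list of adult leg 2 carry no library number, and its identity rests on the record of which file belongs to which sample. With one adult library left out in turn, a setting chosen after the data were seen, the difference was 21.8, 17.0 and 21.5 points without adult legs 1, 2 and 3.

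**Figure D2:**
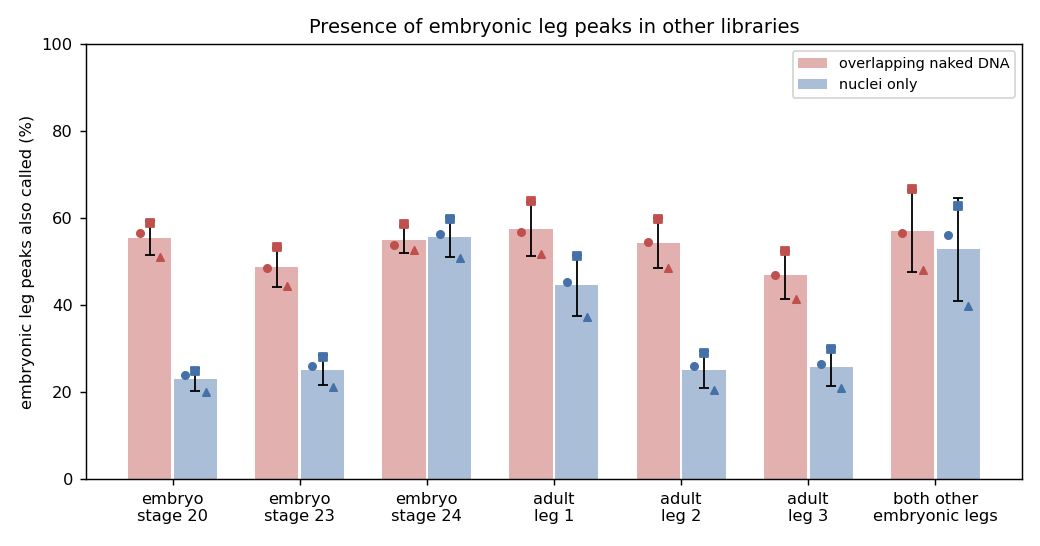
Percent of embryonic leg peaks also called in each embryo, each adult leg library and both other embryonic leg libraries, for DNA-shared (red) and nuclei-only (blue) peaks. Bars are means of the 3 embryonic leg libraries, whiskers SD, and points the libraries (circle 1, square 2, triangle 3). The pair of bars is level for the stage 24 embryo (55.1% and 55.7%) and farthest apart for the stage 20 embryo (55.5% and 23.0%).

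Both presence differences were seen in the means of all 10 groups of peaks ranked by fold. Among the 10% of peaks with the lowest fold, 7.62% ± 2.68 of DNA-shared and 2.21% ± 0.85 of nuclei-only peaks were called in all 3 adult legs. In the fifth group the values were 25.6% ± 9.01 and 7.47% ± 2.66, and in the highest group 85.1% ± 3.83 and 64.2% ± 5.71 (SD, n = 3 each). Presence in at least 1 embryo was 48.6% ± 6.08 against 28.2% ± 5.73 in the lowest group and 99.3% ± 0.331 against 96.0% ± 0.497 in the highest, where nearly all peaks were found. Presence at stage 24 was 22.9% against 22.0% in the lowest group. In the highest it was 89.3% against 92.6%, with nuclei-only peaks higher in all 3 libraries.

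**Figure D3:**
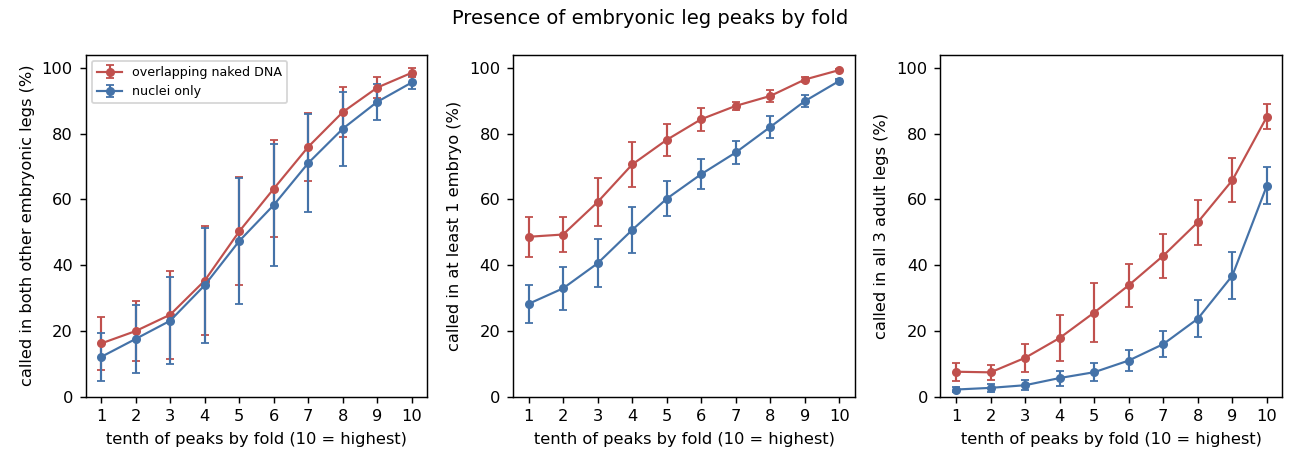
Percent of embryonic leg peaks found in both other embryonic leg libraries, in at least 1 embryo and in all 3 adult leg libraries, over 10 groups of peaks ranked by fold within each library, for DNA-shared (red) and nuclei-only (blue) peaks. Points are means of 3 libraries and whiskers SD. For agreement between embryonic legs the curves lie close, with the mean of DNA-shared peaks higher in all 10 groups. They lie apart for adult legs, with 85.1% against 64.2% in the highest group.

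Of the 49046 regions called in all 3 embryonic leg libraries, 17153 (35%) were also called in all 3 adult leg libraries. Of these, 5526 (32.2%, Wilson 95% interval 31.5% to 32.9%) overlapped naked DNA, against 1219 of the 12384 called in no adult leg library (9.84%, 9.33% to 10.4%). Of regions called in 1 and 2 adult libraries the share was 13.2% and 21.5%. The pattern with the highest share was adult legs 2 and 3 without adult leg 1, at 346 of 630 regions (54.9%). Regions called in adult leg 1 alone stood at 10.4%.

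The difference was also seen among regions of like strength. Over 10 groups of regions ranked by mean fold, the share ran from 25.6% to 49.1% for regions in all 3 adult legs. For those in none it ran from 3.97% (of 126 regions) to 11.9% (of 2469 regions). The regions were not matched for width. At the stricter naked DNA threshold the shares of all regions in all 3 adult legs and in none were 21.2% and 2.15%. With embryos and adult legs counted jointly, 3302 of the 8218 regions called in every nuclei library overlapped naked DNA (40.2%), against 321 of the 3328 regions called in embryonic legs only (9.65%, Wilson 95% interval 8.69% to 10.7%).

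**Figure D4:**
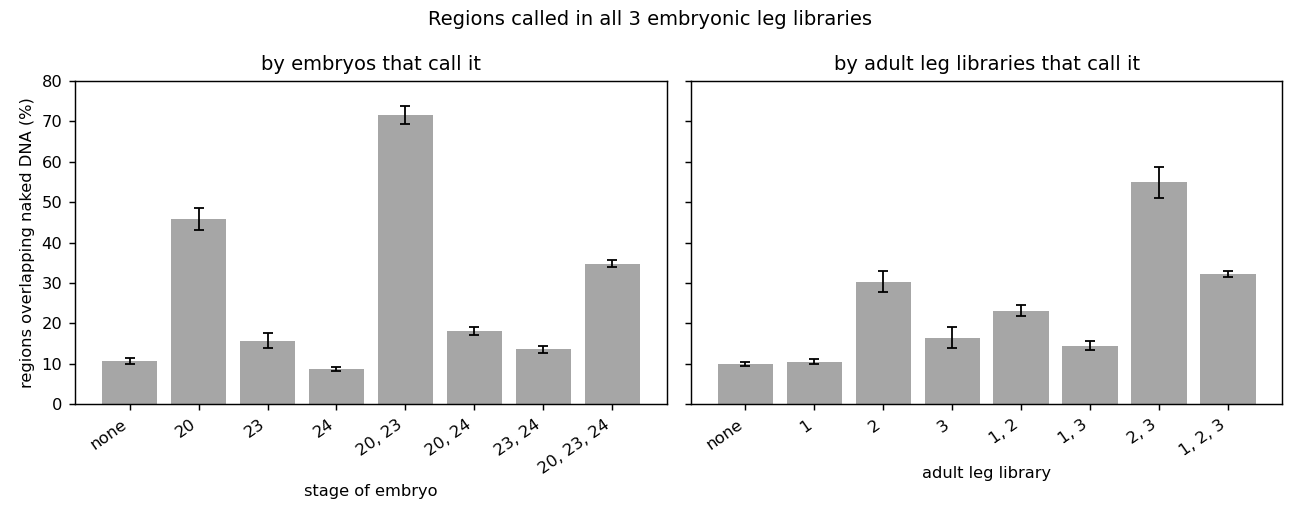
Percent of the regions called in all 3 embryonic leg libraries that overlap a naked DNA peak, by the embryos (left) and the adult leg libraries (right) that also call the region. Whiskers are 95% Wilson intervals, which cover counting error only. The bars for stages 20 and 23 without 24 (71.5%) and for adult legs 2 and 3 without 1 (54.9%) stand highest, and the bar for stage 24 alone (8.79%) is the lowest.

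Seen from naked DNA, most peaks had no counterpart in embryonic legs. Embryonic legs 1 to 3 overlapped 10.1%, 8.53% and 12.0% of the 161533 naked DNA peaks. Of these peaks 135873 (84.1%) met no embryonic leg peak, 11182 met a peak of 1 library, 5194 of 2 libraries and 9284 (5.75%) of all 3. Naked DNA peaks met by more libraries were wider, with medians of 436, 534, 570 and 634 bp for 0, 1, 2 and 3 libraries. They were also stronger, with median naked DNA folds of 2.62, 2.95, 3.44 and 4.42, and lay more often on scaffolds under 10 kb, in 6.78%, 13.6%, 19.8% and 20.6% of cases.

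The overlap was concentrated in the strongest naked DNA peaks. In 10 groups ranked by naked DNA fold, the lowest group was overlapped in 4.79%, 4.35% and 6.67% of cases by embryonic legs 1 to 3, and the ninth group in 10.9%, 8.26% and 12.9%. The highest group, with folds from 4.58 to 34.8, was overlapped in 43.5%, 37.6% and 44.6% of cases, and 28.3% of its peaks met all 3 libraries. The step between the ninth and the highest group was thus far larger than any step before it, and every library showed it.

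The distance between summits describes how leg peaks sat on naked DNA peaks. Overlap bounds this distance by the widths of both peaks, so the values below are partly set by the class rule. The median distance from the main summit of a DNA-shared peak to the nearest naked DNA summit was 96, 100 and 107 bp. Within 50 bp lay 29.3% ± 1.52 and within 100 bp 49.8% ± 1.73 of them, and 83.8% ± 1.19 of the summits lay inside the naked DNA peak (SD, n = 3 each). By strength, the median was 109 bp ± 3.21 in the lowest and 103 bp ± 13.4 in the highest group of fold.

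**Figure D5:**
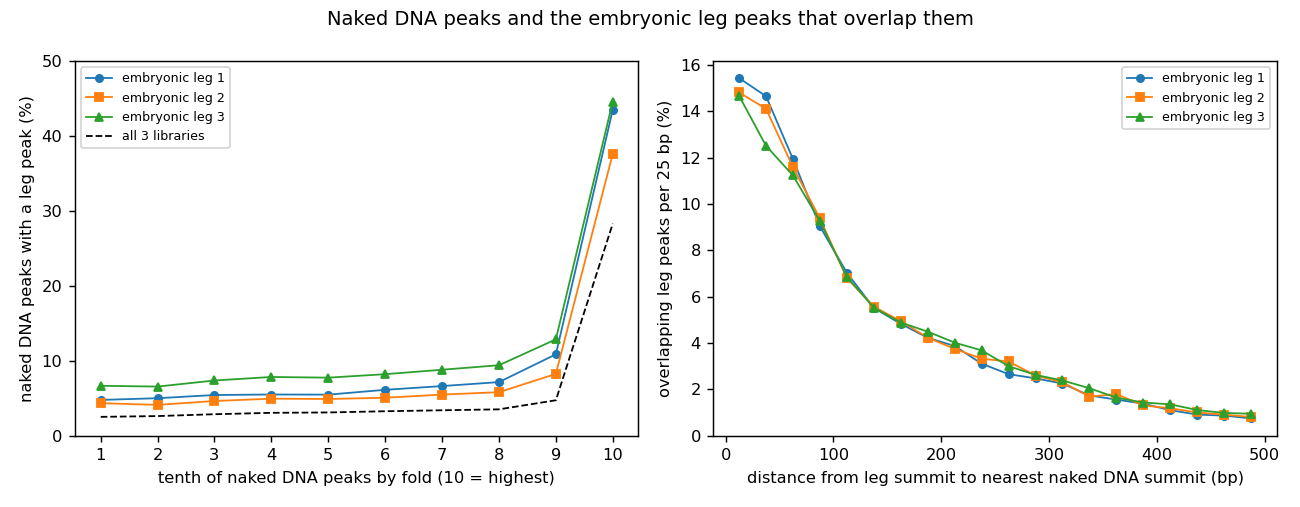
Left, percent of naked DNA peaks overlapped by a peak of each embryonic leg library and of all 3 (dashed), over 10 groups ranked by naked DNA fold. Right, distance in bp from the main summit of each DNA-shared peak to the nearest naked DNA summit, as percent of DNA-shared peaks per 25 bp. The highest group stands at 43.5%, 37.6% and 44.6% in libraries 1 to 3, and 49.8% of the distances lie within 100 bp.

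Single regions show how the values combine. With 1 added to each pileup, the fold depends on depth. The background was 0.404, 0.233 and 0.555 reads at stages 20, 23 and 24 and 0.482, 0.451 and 0.252 in adult legs 1 to 3. Orders of folds between libraries below thus describe the deposited values, and do not measure how open a region was. The regions were also chosen by their mean fold in embryonic legs, a choice that favours lower folds in the other libraries. Coordinates are those of the deposited files, on scaffolds whose names begin with phaw_50, counted from 1. No build name or gene annotation was given in the sources used here, so no gene is named. On scaffolds of at least 10 kb, the strongest region overlapping naked DNA and called in all 3 embryonic leg libraries lay at 81684 to 82523 of phaw_50.000316. Its fold was 63.9, 67.6 and 67.8 in embryonic legs 1 to 3, 45.2, 52.6 and 47.4 in adult legs 1 to 3, 47.5, 38.7 and 10.3 at stages 20, 23 and 24, and 32.5 in naked DNA. These folds were above the median fold of every library's list, and among the nuclei libraries the lowest was at stage 24.

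The next 3 in rank lay at 13704 to 13999 of phaw_50.049867, at 28626506 to 28627006 of phaw_50.283828a and at 2468168 to 2468613 of phaw_50.283743b. Their mean folds in embryonic legs were 62.4 ± 3.62, 57.97 ± 1.59 and 56.3 ± 0.917 (SD, n = 3), and each was called in all 10 libraries, with naked DNA folds of 16.7, 31.6 and 30.2. The region at 16355936 to 16356468 of phaw_50.283821 had folds of 53.0, 50.6 and 50.6 in embryonic legs, 15.3, 37.5 and 18.7 in adult legs, 13.2 and 14.2 at stages 20 and 23 and 24.4 in naked DNA. It was not called at stage 24. The sixth, at 135532 to 135694 of phaw_50.283863e, had a mean fold of 47.6 ± 2.34 in embryonic legs and only 2.78 in naked DNA, close to the naked DNA median of 2.70.

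The strongest nuclei-only region on such scaffolds lay at 2482142 to 2482387 of phaw_50.283829a. Its fold was 39.9, 41.6 and 41.0 in embryonic legs, 41.0, 36.2 and 35.7 in adult legs and 43.0, 39.0 and 17.2 at stages 20, 23 and 24. Its values in adult legs 2 and 3 lay below all 3 embryonic leg values, and its value at stage 24 was the lowest. The second, at 19349604 to 19350076 of phaw_50.283867c, had a mean fold of 40.4 ± 1.51 in embryonic legs and 25.7, 27.4 and 21.6 in adult legs. The third, at 8863534 to 8864118 of phaw_50.283850a, had folds of 37.8, 36.0 and 39.8 in embryonic legs, 36.0, 30.0 and 27.5 in adult legs and 7.83, 9.23 and 9.44 in the embryos. As deposited, with depth differing between libraries and the region chosen by its fold in embryonic legs, the embryo values were below all 6 leg values. They were above the median folds of those embryos, 4.45, 4.34 and 5.79.

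The remaining 3 nuclei-only regions were at 5094785 to 5095106 of phaw_50.282695a, 13125443 to 13125625 of phaw_50.283867b and 4153765 to 4154160 of phaw_50.282654b. Their mean folds were 37.5 ± 2.33, 37.2 ± 5.95 and 37.2 ± 3.59 (SD, n = 3), and each was called in all 3 adult legs and all 3 embryos. All 6 nuclei-only regions named on these scaffolds had lower mean folds in embryonic legs than all 6 regions overlapping naked DNA. The named regions were picked by that mean fold, so this order describes only the top of each class. Among all regions called in all 3 embryonic leg libraries, on scaffolds of any length, the order was the other way. The median fold was 8.54 in the 10014 overlapping naked DNA and 8.86 in the 39032 others.

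On shorter scaffolds the strongest regions lay on fragments whose farthest peak ended at 304 to 796 bp. With naked DNA these were 233 to 796 of phaw_50.048714, 1 to 583 of phaw_50.070906 and 3 to 345 of phaw_50.095232, with mean folds of 65.9 ± 2.09, 63.1 ± 1.72 and 60.5 ± 2.16 and naked DNA folds of 34.5, 33.5 and 28.3. Without naked DNA they were 169 to 314 of phaw_50.179865, 108 to 304 of phaw_50.185513 and 63 to 344 of phaw_50.163595, with mean folds of 57.99 ± 2.37, 52.5 ± 2.73 and 49.7 ± 1.05. The first of these was called in adult leg 1 (fold 46.1) and not in adult legs 2 and 3, and so was the second (fold 47.9). The third was called in all 9 nuclei libraries.

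Long scaffolds differed widely in the share of their regions that overlapped naked DNA. Among the 111 scaffolds with at least 100 regions called in all 3 embryonic leg libraries, the share had a median of 15.5% and ran from 7.92% to 53.1%. It was highest on phaw_50.282997b, with 102 of 192 regions (53.1%, 95% Wilson interval 46.1% to 60.0%), on phaw_50.283710 with 80 of 163 (49.1%) and on phaw_50.283865d with 59 of 128 (46.1%). It was lowest on phaw_50.283869b, with 29 of 366 (7.92%, 5.57% to 11.2%), on phaw_50.283817c with 24 of 269 (8.92%) and on phaw_50.282695a with 52 of 558 (9.32%). All 6 scaffolds reached beyond 10 Mb. How the share varied with length over the 111 scaffolds was not tested.

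Most windows of 100 kb held at most 1 region overlapping naked DNA, and a few held many. Whether those few exceed what an even spread would give was not tested. Of 18721 windows with a region called in all 3 embryonic leg libraries, 10823 held none that overlapped naked DNA, 6454 held 1 and 1042 held 2. The window with most was the first of phaw_50.000111 (0 to 0.1 Mb), where 13 of 14 regions overlapped naked DNA and 13 were called in all 3 adult legs. At 3.5 to 3.6 Mb of phaw_50.283852 all 12 regions did. Windows at 0.1 to 0.2 Mb of phaw_50.000115 (11 of 11) and at 0 to 0.1 Mb of phaw_50.000501 (11 of 12) tied for the next place. These windows held 16, 15, 12 and 15 naked DNA peaks.

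Adult legs were compared to see which of these values belonged to embryonic legs in particular. The share of peaks overlapping naked DNA was 18.45% ± 1.24 in embryonic and 26.4% ± 5.35 in adult legs, and all 3 embryonic values lay below all 3 adult values (difference −7.92 percentage points, exact two-sided permutation p = 0.1, n = 3 each). That p is the smallest the design allows, 25 values were compared in this way, and the Benjamini-Hochberg adjusted p was 0.357 (exact permutation test). Age, leg identity and list length differ together between the groups, and with the same number of strongest peaks from each of the 6 libraries the difference was −8.18 points. In the full lists, adult leg 1 with 76268 peaks stood at 20.8% and embryonic leg 2 with 77357 at 18.7%. Adult legs 2 and 3, with 49502 and 48324 peaks, stood at 31.4% and 26.9%. The embryos at stages 20, 23 and 24, with 60435, 56606 and 119994 peaks, stood at 30.1%, 26.2% and 15.6%.

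Presence in the other kind of leg was compared next. DNA-shared peaks of embryonic legs were found in all 3 libraries of the other leg kind 17.5, 20.6 and 17.2 percentage points more often than nuclei-only peaks. For adult leg peaks, looked up in the 3 embryonic leg libraries, the difference was 6.24, −2.51 and 3.30 points. The groups did not overlap, and their means differed by 16.1 points (exact two-sided permutation p = 0.1, adjusted 0.357, n = 3 each). Adult leg lists are shorter than those they were looked up in, and with the same number of strongest peaks from each library the difference was 27.5 points. This contrast is not independent of the share above. Peaks common to both leg kinds are set against lists of which 18.45% ± 1.24 and 26.4% ± 5.35 overlapped naked DNA (SD, n = 3 each). The excess of DNA-shared peaks found in at least 1 embryo was 14.1, 14.6 and 16.8 points in embryonic and 18.7, 18.3 and 19.2 points in adult legs (difference −3.60, exact two-sided permutation p = 0.1, n = 3 each).

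Presence in at least 1 library of the other leg kind, and in each of its libraries 1, 2 and 3, also separated the groups. The means differed by 12.8, 4.77, 24.97 and 16.5 points (exact two-sided permutation p = 0.1, adjusted 0.357, n = 3 each). These values are not independent of presence in all 3 libraries. The last 3 match libraries by replicate number, which does not pair them.

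Width, scaffold length, spacing and presence at stage 20 overlapped between the leg kinds in the deposited lists. DNA-shared peaks of adult legs were wider by 55, 77 and 46 bp, against 70, 65 and 67 bp in embryonic legs (exact permutation p = 0.5, two-sided, n = 3 each). The excess on scaffolds under 10 kb was 12.2, 17.7 and 14.9 points in adult legs and 14.1, 14.1 and 11.9 points in embryonic legs (exact p = 0.4, n = 3 each). The median spacing of DNA-shared peaks differed from that of nuclei-only peaks by 893, −2271 and −1061 bp in adult legs 1 to 3 and by 728, 1099 and 564 bp in embryonic legs (exact p = 0.3, n = 3 each). Once each of the 6 lists was cut to one length by fold, embryonic legs exceeded adult legs by 37.3 bp in the width difference, where the deposited lists gave 8 bp, and by 4370 bp in the spacing difference, where they gave 1610 bp (exact permutation p = 0.1, two-sided, n = 3 each). The difference in summits per peak likewise went from 0.0158 (exact p = 0.4) to 0.074 (exact p = 0.1, n = 3 each). At stage 20, the excess was 32.5 points ± 1.36 in embryonic and 32.6 points ± 1.06 in adult legs (exact p = 0.9, n = 3 each), and the gap of −0.104 points between them was below either spread.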

How the data were processed

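ATAC-seq peak lists of 10 libraries were used. The tools listed per the submitters' processing notes, without role or order, are MACS2 2.2.7.1, Picard, Bowtie2 2.5.4, bedtools 2.31.1 and SAMtools 1.21. Genome build, control, calling threshold and any read shift: not given in the sources used here. Each library has its own deposited list. Its fold column is a ratio made by the authors, and the deposited p-values and q-values are on the −log10 scale, with a highest q-value of 0.05. The deposited score column was used for nothing. The other deposited column, the summit offset, placed the summits.

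Rows with the same start and end were merged into 1 peak with the fold of its strongest summit. Pileup and expected pileup were solved from fold and p-value (100% of peaks within 0.002 on the −log10 scale); read totals are not in the lists. Classes were compared within libraries by exact two-sided sign-flip tests, and leg kinds by exact two-sided permutation of library labels. Python 3.11.15, numpy 2.4.6, pandas 2.3.3 and scipy 1.17.1 were used. The overlap counts equalled those of bedtools (difference 0), and the procedure was tested on simulated lists. Alternatives were other thresholds, overlap rules, list lengths, scaffolds, groups of like fold or width, and libraries left out. Sequence features were not analysed here, since no genome was used.

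Regions named are the 6 of highest mean fold per class on scaffolds of at least 10 kb and the top 3 on shorter ones, the 3 scaffolds with the highest and lowest share, and the 3 windows of 100 kb with most overlapping regions (a tie made 4). The members and lists were chosen with earlier results of these data known.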

Additional observations from a re-analysis of the deposited data

How the results depend on the processing

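Of the 24 differences between DNA-shared and nuclei-only peaks, 191 values under other settings kept their direction and 10 did not; of those with 1 library left out, 70 kept it and 2 did not. The share of DNA-shared peaks was 10.13% and that of summits in naked DNA 9.77% with naked DNA peaks of q at most 1e-05. The share was 15.9% with 50% of the shorter interval required and 15.5% by summit. Long scaffolds (1 Mb or more) gave 15.1% and 12.0%. The spacing difference was −173 bp at the stricter naked DNA threshold. The difference in fold was −0.105 at that threshold, −0.0682 at 50% overlap, −0.231 by summit, −0.13 with equal numbers of peaks, −0.0868 on long scaffolds and −0.828 among peaks of like width, and from −0.00565 to 0.107 with 1 library left out. Among peaks of like width, presence in both other libraries differed by −5.40 percentage points and in neither by 1.66 points. The stage 24 difference was −6.75 points among peaks of like width, −4.52 at the stricter naked DNA threshold, 1.31 points on long scaffolds and from −1.94 to 0.378 points with 1 library left out. Stage 24 presence was higher in DNA-shared peaks in the means of all 10 groups ranked by pileup, and likewise by expected pileup. The cause of these changes was not tested. The replicate numbers of embryonic and adult legs did not pair the libraries (correlations of −0.133, −0.118 and −0.0155 over 17153 regions); with the replicate block the share still differed by −7.92 points (exact sign-flip p = 0.25, the smallest possible with 3 pairs). The median peak rests on 9 to 11 reads, the naked DNA library is single and 3 libraries allow no p below 0.25, so weak peaks and small differences could not be resolved.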
